A study of Mus musculus with 8 samples.

Results

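Myeloid paired and inhibitory surface receptors were examined in the skin of mice with and without an allergen-induced dermatitis, through the genes Lilrb4, Pirb, Cd300a, Cd300lf, Cd300lb, Cd300ld, Clec4n, Clec7a, Tyrobp and Fcer1g. These 10 genes were chosen by name with the expression differences between these same 8 libraries already known. Their levels and differences are therefore given as a description. Counts of them that pass a threshold describe the fits and are not read as tests of these genes. Of the 10 genes, 9 were among the 22740 genes listed and Clec7a was not analysed here. All 9 passed the filter on low counts that left 15163 genes.

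The study asked how butyrate, a short-chain fatty acid that gut bacteria make from fibre, changes skin before and after exposure to house dust mite (HDM) allergen. RNA was sequenced from the skin of 8 female BALB/c mice aged 6 to 8 weeks, with 1 library for each mouse and 4 groups of 2 mice. Both CTL groups drank water without butyrate, and both butyrate groups drank 400 mM sodium butyrate. All mice were on a low-fibre diet. Lesional CTL and lesional butyrate mice received 4 applications of 15 µg HDM extract over 2 weeks on shaved back skin, under an occlusive dressing. In the butyrate mice butyrate had begun 2 weeks earlier and was continued. Baseline CTL and baseline butyrate mice were never exposed to HDM. The first number in the labels separates baseline from lesional mice, so HDM exposure and the set of mice cannot be told apart. The labels do not say whether baseline mice wore such a dressing, so occlusion cannot be told apart from HDM exposure either. The labels do not say whether mice of a group shared a cage or litter.

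Paired receptors are families of closely related surface proteins in which some members inhibit and others activate the same cell. Inhibitory members carry immunoreceptor tyrosine-based inhibitory motifs (ITIMs) in their tails, which recruit the phosphatases SHP-1, SHP-2 or SHIP-1, whereas activating members have short tails and signal through small adaptors. The adaptors DAP12, encoded by Tyrobp, and the Fc receptor γ chain, encoded by Fcer1g, carry activating motifs (ITAMs) that recruit the kinase Syk. These receptors sit mainly on macrophages, monocytes, dendritic cells, granulocytes and mast cells, all of which are found in inflamed skin.

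The bases before the transcription start are shown for 4 of the genes because these genes share a short purine-rich motif there. RefSeq promoters on GRCm38.p6 matched 6 of the 9 genes, namely Pirb, Cd300a, Cd300lf, Cd300lb, Cd300ld and Fcer1g. In the 250 bases before each RefSeq start, 2 motifs of the kind bound by ETS factors such as PU.1 were searched on both strands, GAGGAA and AGGAAGT, which can overlap each other. GAGGAA stood in 4 of the 6 genes and in 23.3% of 32851 promoters, and AGGAAGT stood in 2 of the 6 genes, Cd300ld and Pirb, and in 7.69% of all promoters. Cd300lb and Fcer1g held neither. Each sequence below is written 5′ to 3′ on the strand of the gene, ends before the first transcribed base of either RefSeq or GENCODE vM21, and has its motif matches in capitals.
Cd300lf (chr11:115133993-115134192, minus strand): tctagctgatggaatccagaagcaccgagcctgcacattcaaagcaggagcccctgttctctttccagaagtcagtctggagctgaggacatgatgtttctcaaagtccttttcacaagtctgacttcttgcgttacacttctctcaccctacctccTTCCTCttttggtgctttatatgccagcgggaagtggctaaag
Cd300a (chr11:114889841-114890040, plus strand): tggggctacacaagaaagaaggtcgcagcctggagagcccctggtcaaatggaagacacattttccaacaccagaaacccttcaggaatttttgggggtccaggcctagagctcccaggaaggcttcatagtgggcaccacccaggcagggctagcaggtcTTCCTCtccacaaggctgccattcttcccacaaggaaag
Cd300ld (chr11:114989923-114990086, minus strand): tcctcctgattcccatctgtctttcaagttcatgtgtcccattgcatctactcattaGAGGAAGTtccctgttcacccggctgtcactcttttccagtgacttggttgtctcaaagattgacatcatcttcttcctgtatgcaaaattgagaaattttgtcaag
Pirb (chr7:3720392-3720582, minus strand): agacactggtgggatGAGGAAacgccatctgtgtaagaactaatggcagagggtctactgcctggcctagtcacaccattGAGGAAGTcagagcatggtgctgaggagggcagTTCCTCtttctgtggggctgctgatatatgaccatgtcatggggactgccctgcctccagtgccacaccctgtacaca
In Cd300lf the match lay 43 to 38 bases before the RefSeq start and in Cd300a 39 to 34 bases before it, both on the strand opposite to the gene. Pirb held GAGGAA at 3 places, and the Cd300ld match joined both motifs in 1 run of letters. A further AGGAAGT of Cd300ld, 38 to 32 bases before the RefSeq start, reaches into the GENCODE transcript and is not printed. A match is a run of letters and says nothing about binding.

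Libraries held 18004136 to 21085544 counts, and levels are given as CPM, the counts of a gene relative to the TMM-scaled library total. At this depth 3 counts, taken as the floor, were worth 0.138 to 0.169 CPM, and intervals from counting would cover counting error only. The 2 baseline butyrate mice stood apart from each other. Hair follicle markers summed to 8230 CPM in baseline butyrate replicate 3 and to 12.6 to 25.7 CPM in the other 7 libraries. All 9 genes were lower in that library than in baseline butyrate replicate 1, by more than 2-fold each, whereas 26.5% of the 14196 genes above 1 CPM were that far apart in either direction. The largest gap was 5.10-fold, for Fcer1g. For each of the 9 genes, CPM in baseline butyrate skin is therefore given for both mice.

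Pan-leukocyte markers (Ptprc, Cd53, Laptm5, Coro1a, Lcp1 and Itgb2) summed to 272 and 356 CPM in baseline CTL skin, 444 and 121 CPM in baseline butyrate skin, 735 and 722 CPM in lesional CTL skin, and 390 and 528 CPM in lesional butyrate skin. Neutrophil markers, of which all 16 were detected in at least 1 library, summed to 29.8 and 32.9, 35.2 and 19.6, 2832 and 1766, and 801 and 376 CPM in the same order. Macrophage and monocyte markers summed to 1074 and 1431, 1890 and 576, 1982 and 2268, and 1077 and 1851 CPM. Of the 16 neutrophil markers, 11 passed the filter on low counts, and Ly6g, Ngp, Camp, Ltf and Elane did not. S100a9 and S100a8 made up most of the lesional neutrophil sums, with means of 1150 and 789 CPM in lesional CTL skin and 307 and 183 CPM in lesional butyrate skin. Csf3r and Mmp9 had means of 127 and 124 CPM in lesional CTL skin and 35.5 and 22.8 CPM in lesional butyrate skin. The part of these markers in the values below was not tested, and in whole skin fewer cells of a type and less RNA per cell cannot be told apart.

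**Figure D1:**
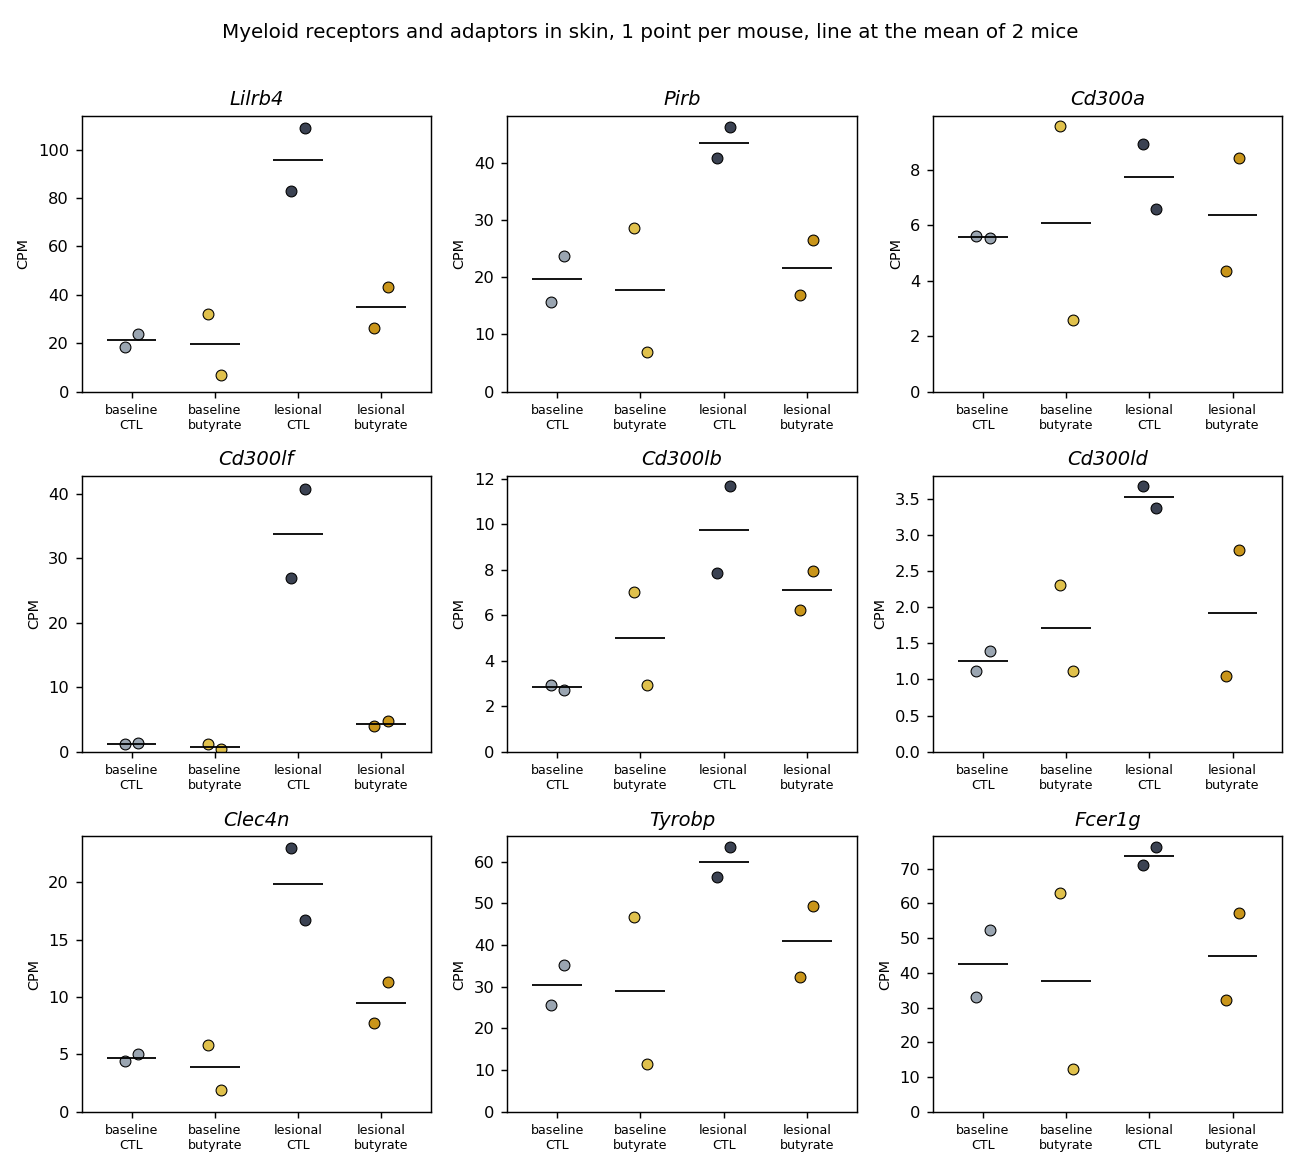
CPM of each of the 9 genes (y axis, linear from 0) in the 4 groups (x axis), with 1 point per mouse and a line at the mean of 2 mice. Cd300lf stood at 26.9 and 40.7 CPM in lesional CTL skin and below 5 CPM in the other 6 libraries, and all 9 genes were lower in replicate 3 than in replicate 1 of baseline butyrate skin.

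Cd300lf, an ITIM-bearing receptor of the CD300 family, changed most among the 9 genes. In baseline CTL skin it stood at 1.17 and 1.28 CPM (21 and 23 counts), and in baseline butyrate skin at 1.13 and 0.374 CPM (20 and 8 counts). In lesional CTL skin it stood at 26.9 and 40.7 CPM (505 and 882 counts), and in lesional butyrate skin at 3.91 and 4.79 CPM (82 and 103 counts). Both lesional CTL libraries were higher than all 6 others, and both lesional butyrate libraries were higher than all 4 baseline libraries. The group means were 1.22 ± 0.077, 0.751 ± 0.533, 33.8 ± 9.72 and 4.35 ± 0.621 CPM (SD, n = 2 each) in the same order. The fitted log2 fold change of lesional over baseline skin was 4.78 (SE 0.50) in CTL mice and 2.54 (SE 0.49) in butyrate mice, or 27.7-fold and 5.80-fold. In lesional skin the value for butyrate over CTL was -2.96 (SE 0.45).
Cd300lf (chr11:115116214-115133992, GRCm38, minus strand) lies inside Rab37 on the opposite strand, and their exons share 0 bases in GENCODE vM21. Rab37, a gene of vesicle transport, had 1.13 to 2.99 CPM in the 8 libraries, and its log2 fold change for butyrate over CTL in lesional skin was -0.17. Its level in lesional CTL skin, 2.99 and 1.75 CPM, overlapped that of lesional butyrate skin, 2.00 and 2.19 CPM.

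Lilrb4, the inhibitory receptor gp49B of mast cells and myeloid cells, followed the same order of groups with a higher baseline level. It stood at 18.3 and 23.9 CPM in baseline CTL skin and at 32.1 and 7.01 CPM in baseline butyrate skin. It stood at 83.0 and 109 CPM in lesional CTL skin and at 26.4 and 43.3 CPM in lesional butyrate skin. Both lesional CTL libraries were higher than all 6 others, whereas the lesional butyrate mice overlapped with the baseline butyrate mice. The log2 fold change was 2.18 (SE 0.67) for lesional over baseline CTL skin and -1.46 (SE 0.65) for butyrate over CTL in lesional skin.
The count of Lilrb4 is uncertain. Its identifier, ENSMUSG00000062593, belongs in GENCODE vM21 to a readthrough locus (chr10:51480612-51496613, GRCm38, plus strand) that spans Lilrb4a and its near-identical neighbour Lilr4b. Gp49a, the neighbour that lacks ITIMs, was listed beside it at 13.5 and 16.9 CPM in baseline CTL, 23.6 and 4.91 CPM in baseline butyrate, 74.3 and 93.6 CPM in lesional CTL, and 22.6 and 29.3 CPM in lesional butyrate skin. The ratio of Lilrb4 to Gp49a counts was between 1.12 and 1.48 in the 8 libraries, so the split of reads between the pair varied little next to the change of either. It was lowest in lesional CTL skin, at 1.12 and 1.16, against 1.17 and 1.48 in lesional butyrate and 1.36 to 1.43 in baseline skin.

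Pirb, an ITIM-bearing receptor for MHC class I, stood at 15.7 and 23.7 CPM in baseline CTL skin and at 28.6 and 6.97 CPM in baseline butyrate skin. It stood at 40.9 and 46.2 CPM in lesional CTL skin and at 16.8 and 26.4 CPM in lesional butyrate skin. The lesional groups did not overlap, and lesional butyrate skin lay within the range of baseline skin. The log2 fold change for butyrate over CTL in lesional skin was -1.01 (SE 0.61), and for lesional over baseline CTL skin it was 1.15 (SE 0.62). Pirb has activating homologues, the Pira genes, and under that name only Pira2 was listed, at 0.0935 to 1.43 CPM. Lilra6, taken with the LILR family, stood at 2.06 and 2.77 CPM in baseline CTL and 3.66 and 0.935 CPM in baseline butyrate skin. It stood at 7.36 and 9.78 CPM in lesional CTL and 2.05 and 5.21 CPM in lesional butyrate skin. Reads shared between Pirb and its homologues were not measured.

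Cd300a, an inhibitory receptor for phosphatidylserine and phosphatidylethanolamine, had the smallest fitted differences of the 9 genes in lesional skin. It stood at 5.61 and 5.55 CPM in baseline CTL, 9.58 and 2.57 CPM in baseline butyrate, 8.91 and 6.60 CPM in lesional CTL, and 4.34 and 8.42 CPM in lesional butyrate skin. The lesional groups overlapped, and the highest and the lowest of the 8 values both came from baseline butyrate skin. The log2 fold change for butyrate over CTL in lesional skin was -0.28 (SE 0.61). It lies in the same CD300 gene cluster as Cd300lf, at chr11:114890041-114904654 on the plus strand (GRCm38).

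Among the receptors that signal through adaptors, Clec4n encodes Dectin-2, a lectin that binds mannose-rich glycans of fungi and of house dust mite and couples to the Fc receptor γ chain. It stood at 4.39 and 4.99 CPM in baseline CTL skin and at 5.81 and 1.92 CPM in baseline butyrate skin. In lesional skin it stood at 22.9 and 16.7 CPM in CTL mice and at 7.73 and 11.3 CPM in butyrate mice. All 4 lesional libraries were above all 4 baseline libraries, and both lesional CTL libraries were above both lesional butyrate libraries. The log2 fold change was 2.08 (SE 0.52) for lesional over baseline CTL skin, 1.30 (SE 0.51) for the same comparison in butyrate mice, and -1.06 (SE 0.50) for butyrate over CTL in lesional skin.

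Cd300lb, a CD300 receptor that couples to DAP12, stood at 2.94 and 2.72 CPM in baseline CTL, 7.04 and 2.95 CPM in baseline butyrate, 7.84 and 11.7 CPM in lesional CTL, and 6.25 and 7.95 CPM in lesional butyrate skin. The lesional groups overlapped. Cd300ld, which couples to the Fc receptor γ chain, stood at 1.11 and 1.39, 2.31 and 1.12, 3.68 and 3.37, and 1.05 and 2.79 CPM in the same order. Its lesional groups did not overlap, but the lesional butyrate mice were 2.66-fold apart, the only gap above 2-fold among the 9 genes in that group. The log2 fold changes for butyrate over CTL in lesional skin were -0.46 (SE 0.43) for Cd300lb and -0.87 (SE 0.54) for Cd300ld.

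The adaptors were the most abundant of the genes per length. Tyrobp stood at 25.7 and 35.1 CPM in baseline CTL, 46.7 and 11.4 CPM in baseline butyrate, 56.3 and 63.5 CPM in lesional CTL, and 32.3 and 49.4 CPM in lesional butyrate skin. Fcer1g stood at 33.1 and 52.3, 63.0 and 12.3, 71.1 and 76.1, and 32.1 and 57.3 CPM in the same order. Both genes were higher in both lesional CTL mice than in any other mouse. The log2 fold changes for butyrate over CTL in lesional skin were -0.55 (SE 0.60) for Tyrobp and -0.72 (SE 0.70) for Fcer1g.
Levels per kilobase of annotated exon allow the genes to be ordered, except for Lilrb4. In baseline CTL skin Fcer1g at 48.8 ± 15.5 and Tyrobp at 45.6 ± 9.97 CPM per kb overlapped, followed by Pirb at 4.40 ± 1.27 and Clec4n at 3.30 ± 0.301, which also overlapped. Cd300a, Cd300lb, Cd300ld and Cd300lf followed without overlap, with Cd300lf lowest at 0.237 ± 0.015 CPM per kb. In lesional CTL skin Cd300lf stood above Cd300lb, Cd300a and Cd300ld, at 6.57 ± 1.89 CPM per kb (SD, n = 2), and in lesional butyrate skin it stood at 0.845 ± 0.121 CPM per kb, overlapping with Cd300a and Cd300ld. The sum of Pirb, Cd300a and Cd300lf per 100 of both adaptors, per kilobase, was 9.81 and 10.8 in lesional CTL skin and 5.97 to 6.98 in the other 6 libraries. Of that sum before scaling, 16.3 and 19.6 CPM per kb in lesional CTL skin, Cd300lf was 5.23 and 7.90. For Cd300lb, Cd300ld and Clec4n the same ratio was 12.2 and 9.37 in lesional CTL skin. It was 5.92 and 4.42 in baseline CTL, 5.19 and 8.94 in baseline butyrate, and 9.38 and 8.41 in lesional butyrate skin. The first sum over the second was 0.803 and 1.15 in lesional CTL skin, within the 0.682 to 1.35 of the other 6 libraries. Lilrb4, an inhibitory receptor that was also highest in lesional CTL skin, is in neither sum because it had no usable exon length.

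Across the 9 genes, lesional CTL skin was higher than baseline CTL skin without overlap in 9 of 9, against 36.7% of all tested genes. Of the 9, 6 had a fitted increase above 2-fold, against 6.83% of all tested genes, and the median log2 fold change was 1.49, against -0.02 over all tested genes. Only Cd300lf passed edgeR's quasi-likelihood threshold (FDR below 0.1 and fold-change above 2), as did 2.37% of all tested genes in this direction. That count moved with the mice in the fit, and so did the share of all genes called in either direction, 3.58% with all mice. It was 6 without baseline butyrate replicate 1 (12.3% of all genes) and 6 without replicate 3 of that group (12.5%). Without any 1 of the 4 mice compared it was 0, with at most 0.147% of all genes called.
In butyrate mice the 9 genes changed less between baseline and lesional skin. The groups did not overlap in 2 of 9, Cd300lf and Clec4n, against 16.4% of all tested genes, and none passed the threshold, against 0.277% of all genes in this direction. The median log2 fold change was 0.49 with both baseline butyrate mice, -0.19 without replicate 3 and 1.83 without replicate 1, so it turned with the mouse left out. Both lesional-to-baseline comparisons use different mice throughout.

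**Figure D2:**
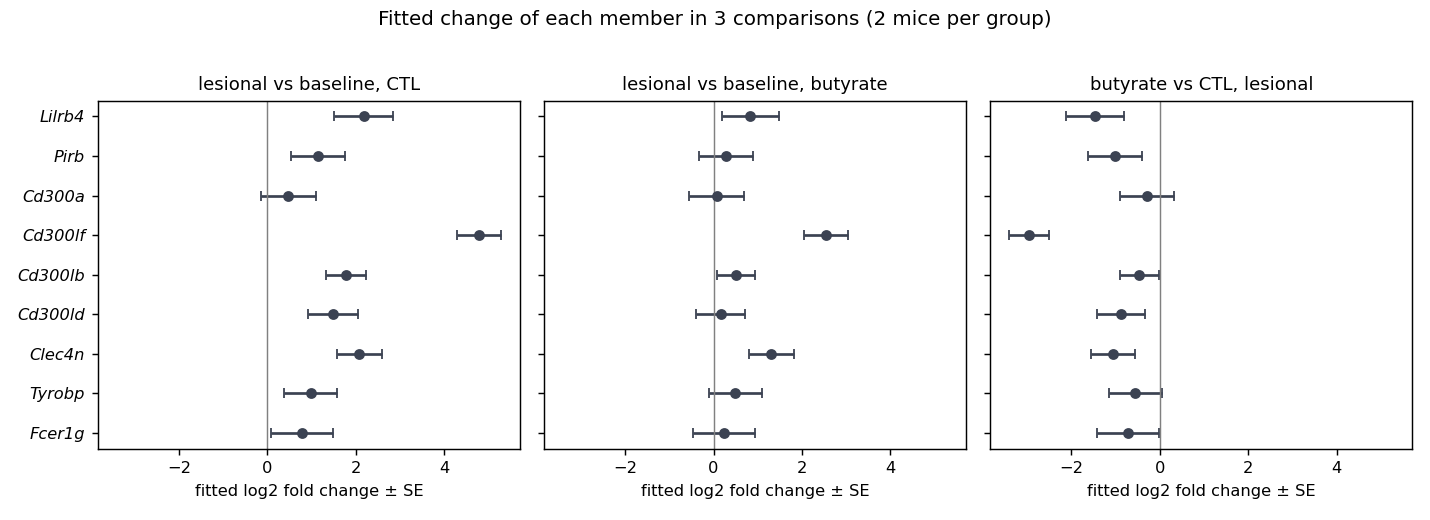
Fitted log2 fold change (x axis) with its standard error (bars) for the 9 genes (y axis) in 3 comparisons of 2 against 2 mice. All 9 points lie above 0 in CTL mice, from 0.47 for Cd300a to 4.78 for Cd300lf, and all 9 lie below 0 for butyrate against CTL in lesional skin, where the bars of Cd300a and Tyrobp cross 0.

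In lesional skin, 7 of the 9 genes were lower in both butyrate mice than in both CTL mice, against 22.5% of all tested genes, and the others, Cd300a and Cd300lb, overlapped. All 9 fitted log2 fold changes were below 0, as were 50.9% of all tested genes, and 4 were beyond a 2-fold decrease (Cd300lf, Lilrb4, Clec4n and Pirb), against 3.28% of all tested genes. The median was -0.87, against -0.01 over all genes. Left to 1 lesional butyrate mouse, the median was -0.36 without replicate 3 and -1.36 without replicate 4. Replicate 3 was the lower of the pair for all 9 genes. Fibroblast markers summed to 3308 CPM in replicate 3 and 8401 CPM in replicate 4, against 6215 and 6915 CPM in lesional CTL skin. Endothelial markers summed to 179 and 271 CPM, against 292 and 286 CPM. Keratinocyte markers went the other way, at 22791.5 and 20716.2 CPM, as did the neutrophil markers given above. The part of this difference in the values of the 9 genes was not tested. None of the 15163 tested genes passed edgeR's threshold for butyrate over CTL in lesional skin. Thus 0 of the 9 did and 0% of all genes did. At an unadjusted edgeR p below 0.05 stood 1 of the 9 genes, Cd300lf, and 4.84% of all genes. This is a description only, because the 9 genes were chosen with these data known. The count of the 9 that passed the threshold was 1 by DESeq2, with 0.818% of all genes, and 0 by limma-voom, with 0.0066% of all genes. It was 2 (Lilrb4 and Cd300lf) without either or both of the baseline butyrate mice, with 1.22% to 1.25% of all genes.

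In baseline skin butyrate and CTL mice overlapped in 7 of the 9 genes. Cd300lf was lower in both butyrate mice, against 16.4% of all tested genes, with 20 against 21 counts at the nearest pair of mice, and Cd300lb was higher in both, against 13.4%, the latter with 2.946 against 2.944 CPM. None of the 9 passed the threshold, against 0% of all genes. The median log2 fold change was -0.11 with both butyrate mice, 0.60 without replicate 3 and -1.40 without replicate 1. Subtracting the baseline effect of butyrate from the lesional one gave -2.24 (SE 0.67, log2) for Cd300lf and from -1.35 to -0.40 for the others, and 0 of the 9 passed the threshold, against 0% of all genes.

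Set against the pan-leukocyte markers of the same library, some of the genes no longer stood out in lesional CTL skin and others did. Tyrobp was 9.39 to 10.5 CPM per 100 CPM of those markers in baseline skin. It was 7.65 and 8.79 in lesional CTL and 8.29 and 9.36 in lesional butyrate skin, both below the baseline range. Fcer1g was 10.2 to 14.7 in baseline skin, 9.67 and 10.5 in lesional CTL skin and 8.23 and 10.8 in lesional butyrate skin. Pirb was 5.76 to 6.66 in baseline skin, 5.56 and 6.39 in lesional CTL skin and 4.32 and 5.00 in lesional butyrate skin. On this scale no lesional CTL library was above the baseline range for either adaptor or for Pirb. Per 100 CPM of the 16 macrophage and monocyte markers, by contrast, Pirb was 2.06 and 2.04 in lesional CTL skin against 1.21 to 1.66 in baseline skin, and Tyrobp was 2.84 and 2.80 against 1.97 to 2.47. Fcer1g overlapped on that scale, at 3.59 and 3.35 against 2.14 to 3.65. The position of these 3 genes thus depended on the markers chosen.
Cd300lf was 0.254 to 0.430 CPM per 100 CPM in baseline skin, 3.66 and 5.63 in lesional CTL skin, and 1.00 and 0.907 in lesional butyrate skin. Lilrb4 was 5.79 to 7.24 in baseline skin, 11.3 and 15.1 in lesional CTL skin, and 6.78 and 8.20 in lesional butyrate skin. Clec4n was 1.31 to 1.62 in baseline skin, 3.12 and 2.32 in lesional CTL skin, and 1.98 and 2.14 in lesional butyrate skin. These 3 genes were higher in both lesional CTL libraries than in any other library on this scale, and also per macrophage and monocyte marker. Cd300a was 1.21 and 0.914 in lesional CTL skin and 1.11 and 1.59 in lesional butyrate skin, against 1.56 to 2.16 in baseline skin. Per 100 CPM of macrophage and monocyte markers Cd300a in lesional CTL skin, at 0.450 and 0.291, overlapped baseline skin, at 0.388 to 0.523. Against the pan-leukocyte markers, Cd300lb was 1.07 and 1.62 in lesional CTL skin and 0.765 to 2.43 in baseline skin. Cd300ld was 0.501 and 0.466 in lesional CTL skin and 0.390 to 0.927 in baseline skin, so both genes overlapped.

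**Figure D3:**
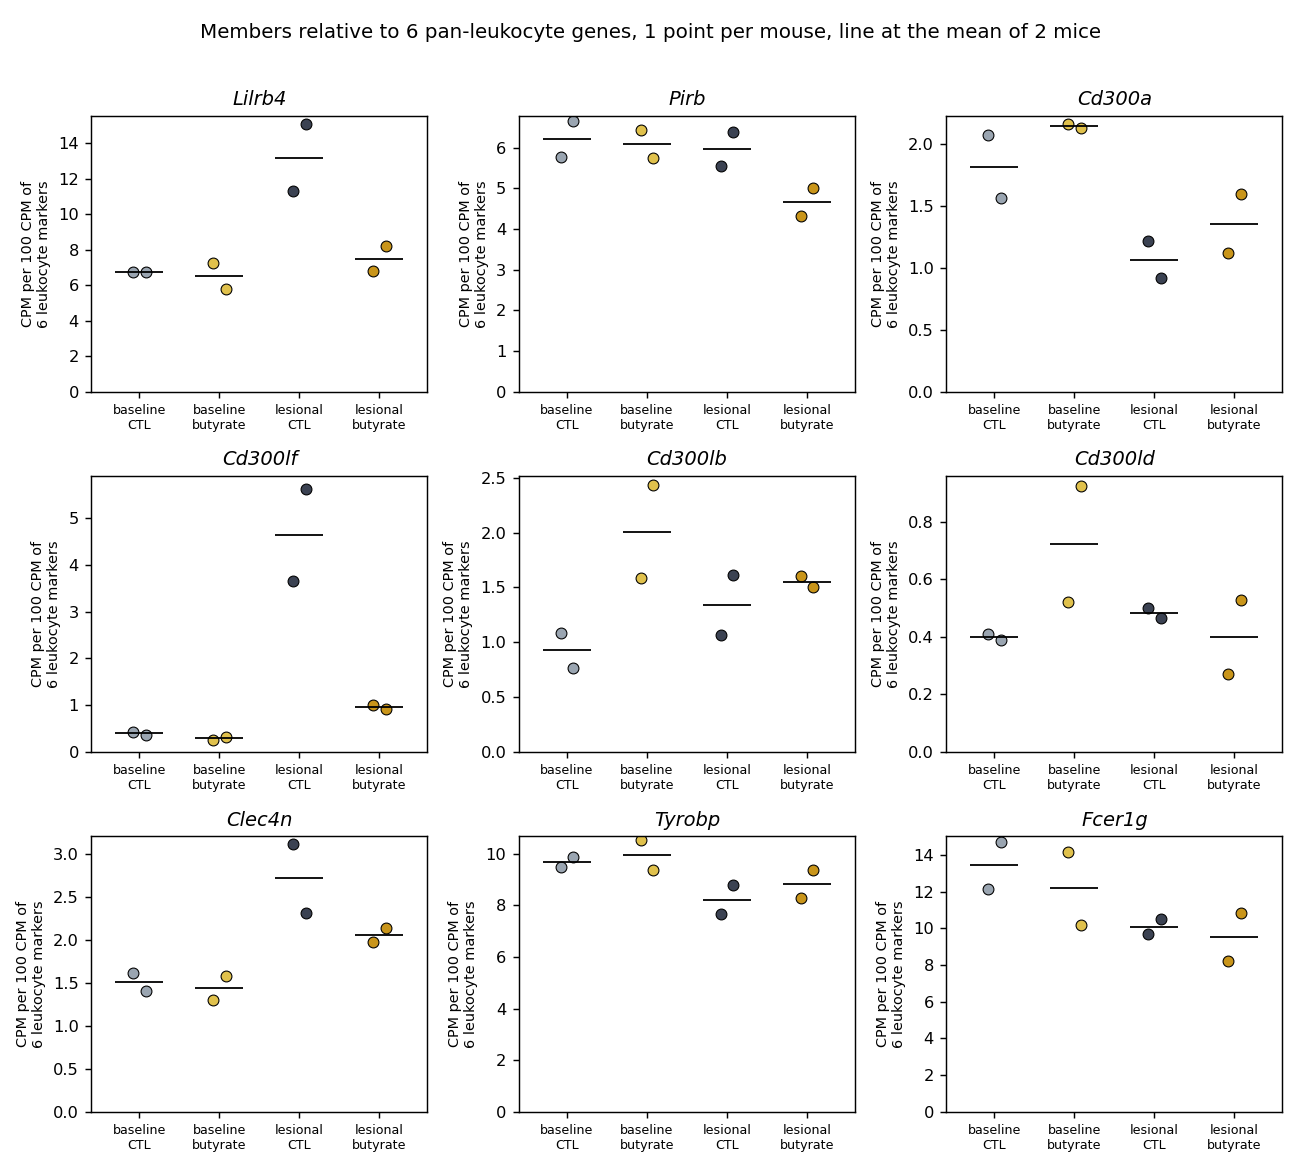
CPM of each gene per 100 CPM of 6 summed pan-leukocyte markers (y axis, linear from 0) in the 4 groups (x axis), with 1 point per mouse and a line at the mean of 2 mice. Cd300lf, Lilrb4 and Clec4n are highest in both lesional CTL mice, whereas Cd300a and Tyrobp are lower there than in all 4 baseline mice on this scale.

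The other genes of these receptor systems were taken as 9 lists by role, with 101 tested genes in all, near-identical copies of the 9 genes included. These lists too, and those of cell type markers, were chosen with earlier results of these data known. Their calls and FDRs are therefore given as a description and are no independent support. For lesional over baseline CTL skin, 10 of the 101 were called higher and 0 lower by edgeR's quasi-likelihood test, against 2.37% of all tested genes in this direction. The same 10 were among those called by limma-voom (12 in all, with 3.81% of all genes) and by DESeq2 (24 in all, with 7.21% of all genes). The count was 0 without any 1 of the 4 mice compared, 3 without either lesional butyrate mouse, and 39 without either baseline butyrate mouse, of which 37 were higher and 2 lower. Of all genes, at most 0.147%, then 0.697% or 0.748%, and then 12.3% or 12.5% were called in those fits, against 3.58% with all mice. For butyrate over CTL in lesional skin, 0 of the 101 were called by edgeR, with 12 at an unadjusted p below 0.05, against 4.84% of all tested genes. In that comparison 0 were called by limma-voom, 5 by DESeq2 and 7 without both baseline butyrate mice, all of them lower in butyrate mice. Of all genes, 0.0066%, 0.818% and 1.25% were called in those fits. Of the 101, 84 had fitted values below 0, with a median log2 fold change of -0.46. The lists and the 9 genes were measured in the same mice and are not independent of each other.

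The Dectin-2 gene cluster was called higher for 2 of 6 tested genes in lesional CTL skin, against 2.37% of all tested genes. Clec4d encodes MCL and Clec4e encodes Mincle, lectins for mycobacterial glycolipids that couple to the Fc receptor γ chain. Clec4d stood at 1.06 and 1.05 CPM in baseline CTL skin and at 1.58 and 0.655 CPM in baseline butyrate skin. In lesional skin it stood at 25.2 and 34.6 CPM in CTL mice and at 5.15 and 5.44 CPM in butyrate mice. Its increase from baseline to lesional CTL skin was 4.82 on the log2 scale (FDR = 0.0150, edgeR). For butyrate over CTL in lesional skin the value was -2.50 (FDR = 0.737, edgeR). Clec4e stood at 0.667 and 1.17, 1.30 and 0.281, 18.9 and 29.2, and 3.05 and 5.58 CPM in the same order of groups. Its log2 fold changes in the same comparisons were 4.71 (FDR = 0.0413, edgeR) and -2.48 (FDR = 0.737, edgeR). Both had the order of groups seen for Cd300lf, with lesional CTL skin highest and lesional butyrate skin between it and baseline skin. Clec4a1 and Clec4a3, the most abundant others of the cluster, had log2 fold changes of 0.42 and 0.76 for lesional over baseline CTL skin and were not called.
Of the other receptors that pair with the adaptors, 4 of 21 tested genes were called higher in lesional CTL skin, against 2.37% of all tested genes. Trem1, a DAP12-coupled amplifier of granulocyte and monocyte activation, had 0 and 0.111 CPM in baseline CTL skin, 14.4 and 26.2 CPM in lesional CTL skin (FDR = 0.0230, edgeR) and 1.67 and 1.86 CPM in lesional butyrate skin (FDR = 0.737). Trem3, Treml4 and Fcer1a were called as well but stood at or under the floor in baseline CTL skin and at 1.28 to 3.20 CPM in lesional CTL skin. Fcgr3, Itgam and Itgb2, the most abundant of the list, had log2 fold changes of 0.95, 0.44 and 0.74 and were not called.

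In a list of 24 other inhibitory receptors and checkpoint genes, 4 were called higher in lesional CTL skin, against 2.37% of all tested genes. Pdcd1 and Cd22 encode the inhibitory receptors PD-1 and CD22, whereas Pdcd1lg2 encodes PD-L2, a ligand of PD-1, and Mrgpra2b encodes a G protein-coupled receptor. All 4 stood at 4.22 CPM or less in every library, and Pdcd1, Cd22 and Mrgpra2b stood at or under the floor in baseline CTL skin. The abundant inhibitory receptors Sirpa, which binds CD47, Fcgr2b, the inhibitory receptor for immunoglobulin G, and Pecam1, an endothelial and leukocyte adhesion receptor, had log2 fold changes of 0.50, 1.10 and 0.44 and were not called. In butyrate against CTL lesional skin these 3 had -0.25, -0.61 and -0.43.
Downstream of the receptors, no signalling gene was called by edgeR on all 8 mice in either comparison. Of all tested genes, 3.58% were called for lesional over baseline CTL skin and 0% for butyrate over CTL in lesional skin. Of 17 activating genes, which include Syk and Card9, 0 were called, with a median of 0.78 for lesional over baseline CTL skin and -0.50 for butyrate over CTL in lesional skin. Of 11 inhibitory genes, which include Ptpn6 and Inpp5d, the genes of SHP-1 and SHIP-1, 0 were called, with medians of 0.21 and -0.37. Of 9 ligands, which include B2m and H2-D1 of MHC class I, 0 were called, with medians of -0.01 and 0.12. The rest of the CD300 and LILR families gave 0 calls of 6 tested genes, with medians of 1.73 and -0.75. The rest of the Dectin-1 cluster gave 0 calls of 7, with medians of 0.10 and -0.09. Other fits did call genes of these lists for lesional over baseline CTL skin. DESeq2 called Lilra6, Pilra, Pilrb1, Pilrb2, Olr1 and Fgr, with 7.21% of all genes called. With only the mice compared, Fgr, Vav1, Hcst, Inpp5d, Ptprc and Fn1 were among those called, with 12.9% of all genes.
Cell type markers moved beside the genes, and 2.37% of all tested genes were called higher in lesional CTL skin. Of 11 tested neutrophil markers 9 were called higher in lesional CTL skin, S100a9 among them at 1465 and 836 CPM against 3.06 and 3.61 CPM in baseline CTL skin. Of the same 11, 1 had a fitted log2 fold change below 0, at -1.41. Of 10 tested mast cell and basophil markers 5 were called, and all 10 were higher without overlap, with sums of 170 and 222 CPM in baseline CTL, 233 and 151 CPM in baseline butyrate, 602 and 527 CPM in lesional CTL, and 434 and 429 CPM in lesional butyrate skin. Of the macrophage and monocyte markers 2 of 16 were called, of the T cell markers 2 of 8, of the eosinophil markers 1 of 4 and of the dendritic and Langerhans cell markers 0 of 11. None of these 6 lists had a call for butyrate against CTL in lesional skin, where the medians were -2.31 for neutrophil, -0.37 for mast cell and basophil, -0.55 for macrophage and monocyte, -0.53 for T cell, -0.75 for eosinophil and -0.10 for dendritic and Langerhans cell markers. Their part in the values of the 9 genes was not tested.

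**Figure D4:**
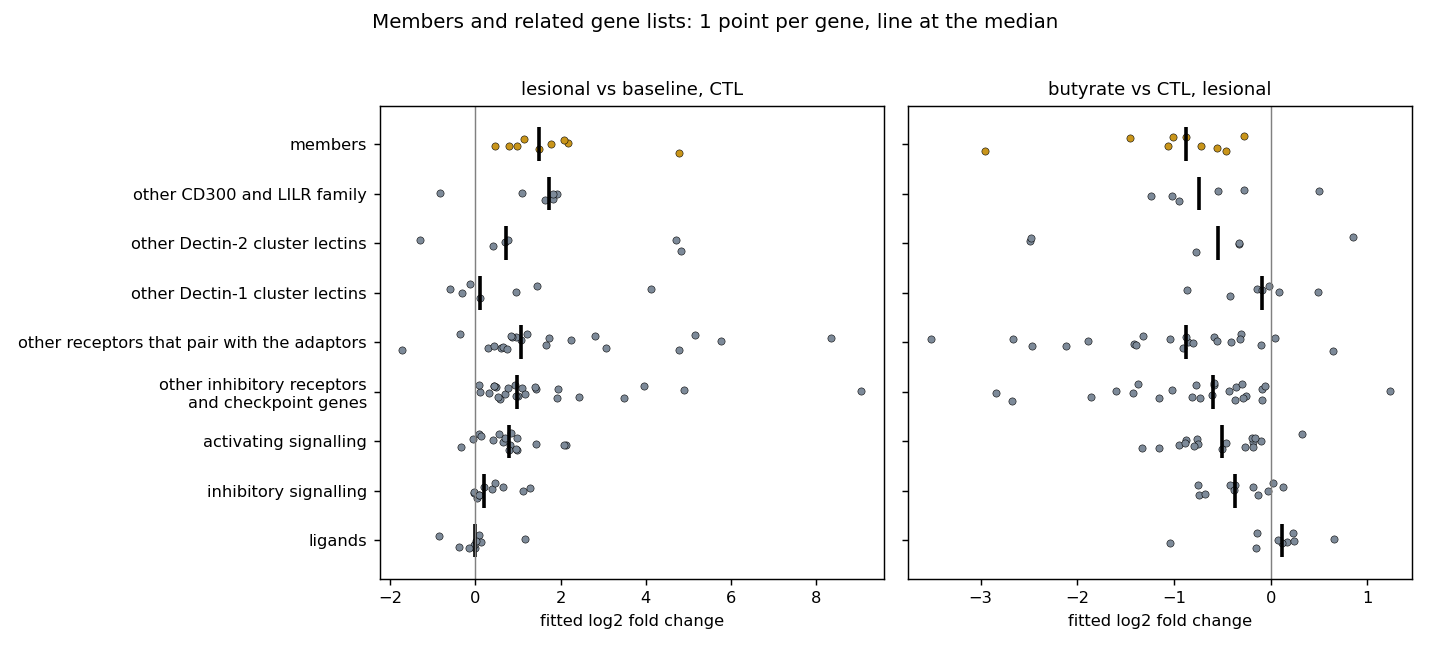
Fitted log2 fold changes (x axis) of the 9 genes and of 8 related gene lists (y axis), with 1 point per tested gene and a line at the median of each list. For lesional over baseline CTL skin the medians run from -0.01 for ligands to 1.73 for the rest of the CD300 and LILR families, and for butyrate over CTL in lesional skin the median of the 9 genes is -0.87.

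The genes whose log2 CPM ran closest to the mean of the 9 standardised genes over the 8 libraries, among 14308 genes with a mean of at least 1 CPM, were Tnfrsf1b, Ifnar2, Cd33, Cd53, Ipcef1, Sirpa, Cd200r4 and Selplg. Their Pearson correlations ran from 0.984 to 0.993, as a description over 8 libraries of similar depth. Tnfrsf1b, a receptor for tumour necrosis factor, had group means of 22.1, 21.8, 56.4 and 35.4 CPM in baseline skin of CTL and butyrate mice and in lesional skin of CTL and butyrate mice, respectively. Cd33, an inhibitory sialic acid receptor of the Siglec family, had 4.69, 4.78, 17.9 and 8.04 CPM in the same order. Of the 9 genes themselves, Lilrb4 lay closest to their mean (r = 0.986) and Cd300a farthest from it (r = 0.838).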

How the data were processed

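RNA of skin from 8 mice was analysed. The authors aligned reads with STAR 2.5.2 to GRCm38 through RNASik, used featureCounts for the reads of each gene and deposited raw counts of protein-coding genes, counted as reverse-stranded, without normalization. Neither labels nor methods say whether the TruSeq RNA kit kept strand. CPM used TMM-scaled totals, and library totals of 18004136 to 21085544 limit genes near 3 counts. Groups came from the labels. Where the methods name limma-voom, the quasi-likelihood test of edgeR 4.0.16 in R 4.3.3 was used on all 8 mice, with filterByExpr at a minimum count of 10, a prior count of 0.125, and calls where the fold-change passed 2 and the FDR (Benjamini-Hochberg) stayed under 0.1. It was tested on simulated data. Standard errors were the size of the log2 fold change over the square root of F. DESeq2 1.42.0, limma-voom from limma 3.58.1, further scalings, filters and thresholds, and fits without 1 or more mice were the alternatives.

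The members and the gene lists were chosen with earlier results of these data known. Named were all members, the 3 most abundant tested genes and all called genes (at most 8) of each other list, of which the text gives those that bear on the members, and the 8 genes most like the members' mean (log2 CPM with a pseudocount of 0.5). Coordinates and exon lengths came from GENCODE vM21 on GRCm38, and promoter sequences from RefSeq. P-values measure the spread between these mice only.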

Additional observations from a re-analysis of the deposited data

How the results depend on the processing

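For butyrate against CTL in lesional skin, 0 of the 9 genes were called in the test on all 8 mice, 1 by DESeq2, 1 with only the mice compared, 2 without both baseline butyrate mice, and 0 to 2 without 1 mouse, with 0%, 0.818%, 0.168%, 1.25% and at most 1.22% of all genes called in those fits, and the median log2 fold change ran from -1.36 to -0.36 without 1 mouse. For lesional against baseline CTL skin, 1 was called, 2 by limma-voom, 4 by DESeq2, 6 with only the mice compared, 6 without both baseline butyrate mice, and 0 to 6 without 1 mouse, with 3.58%, 3.81%, 7.21%, 12.9%, 12.4% and at most 12.5% of all genes, and with medians of 1.34 to 1.66. For lesional against baseline butyrate skin, 0 were called, 1 by DESeq2 and 0 to 8 without 1 mouse, with 4.6% of all genes called by DESeq2 and 19.1% in the fit without baseline butyrate replicate 1 that gave 8, and the median ran from -0.19 to 1.83. For butyrate against CTL in baseline skin, 0 were called and 0 to 7 without 1 mouse, the 7 in the fit without baseline butyrate replicate 1, where 24.1% of all genes were called, and the median ran from -1.40 to 0.60. For the difference between both effects of butyrate 0 were called under every alternative run, also without baseline butyrate replicate 1, where 20.9% of all genes were called, and the median ran from -1.55 to 0.21 without 1 mouse. A lone mouse left in a group is assumed to vary like the other groups. Changes of sign were counted over fitted values, 1 for each gene in each alternative fit, and these fits share mice. For butyrate against CTL in lesional skin 1 of 162 values changed sign, and for lesional against baseline CTL skin 0 of 162 did. In the 3 comparisons that use baseline butyrate mice it was 12 of 153, 9 of 153 and 6 of 144 values. Why these values moved was not tested. Of the 101 related genes, for butyrate against CTL in lesional skin 0 were called, 5 by DESeq2, 1 with only the mice compared, 7 without both baseline butyrate mice and 0 to 7 without 1 mouse. For lesional against baseline CTL skin 10 were called, 24 by DESeq2 and 6 among genes with a mean of at least 1 CPM, where 3.14% of all genes were called. There were 39 with only the mice compared and 38 without both baseline butyrate mice, and the count moved with any mouse left out. The shares of all genes in the other fits are those given above. Summing Lilrb4 and Gp49a counts, an alternative chosen after seeing the data, left the lesional median at -0.87. No paired analysis was possible because the groups compared share fewer than 2 replicate numbers.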
